A study of Mus musculus with 6 samples.

Results

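A set of 7 genes that astrocytes use to couple to each other and to move water and ions were followed in cultured mouse neurons given apolipoprotein E (apoE) particles of glial origin. They were chosen by name, but with earlier results of these data known. The set holds the connexin genes Gja1 and Gjb6, the water channel gene Aqp4, and Mlc1 with its partner Hepacam. It also holds the sodium pump subunit gene Atp1b2 and the bicarbonate transporter gene Slc4a4. All 7 had a value other than 0, out of 26562 such symbols among 47593 in the tables. The cultures were primary hippocampal neurons of wild-type mice, and both groups were treated at culture day 10 for 24 h with particles at 6 µg/mL. One group received astrocytic apoE particles and the other microglial apoE particles, with 3 samples each and 6 in all. Untreated neurons were not analysed here, so "lower" and "higher" mean microglial against astrocytic apoE. Whether the 3 samples of a treatment were grown or taken from mice independently is not in the labels, so p-values measure only the spread between these samples, which may be technical.

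Astrocytes form a coupled network. Connexin 43 (Gja1) and connexin 30 (Gjb6) build the gap junctions through which ions and small metabolites pass from cell to cell, and connexin 30 appears later in development than connexin 43. Water crosses the astrocyte membrane through aquaporin-4 (Aqp4), which the dystrophin complex holds at the endfeet on blood vessels. The membrane protein MLC1 and the adhesion molecule GlialCAM (Hepacam) form a complex at astrocyte contacts, and loss of either in humans causes a leukodystrophy with brain swelling. The sodium pump, whose beta-2 subunit (Atp1b2) is abundant in astrocytes, clears potassium, and the cotransporter NBCe1 (Slc4a4) carries sodium with bicarbonate and sets astrocyte pH.

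The deposited values are on a log2 scale, one per gene symbol and library, and a value below is such a level unless it is called a difference. They have the pattern of a regularized logarithm, which draws weakly expressed genes towards their own mean, so fold changes and errors of weak genes are understated. The sum of 2 to the power of the value was 18060473 to 18337624 for each of the 6, a scale that gives no read number, so depth is unknown. On that linear scale 15 neuronal markers, all of them tested, summed to 91958 to 93782 with astrocytic and 90145 to 91701 with microglial apoE. In the test described below 5 of them were lower and 2 higher, against 11.8% lower and 13.0% higher of all genes tested. Astrocyte transcripts were abundant in the same libraries (Gfap at 13.00 and Slc1a3, a glutamate transporter, at 14.59 with astrocytic apoE). The 28 astrocyte markers read below summed to 99920 to 100981 with astrocytic and 87656 to 88991 with microglial apoE. Such sums over different genes give no share of cells and establish no identity. All of the 7 but Gjb6 stood well above the filter used for testing. In bulk RNA fewer astrocytes and less of a transcript per astrocyte cannot be told apart.

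With microglial apoE, 5 of the 7 genes were lower: Gja1, Aqp4, Atp1b2, Slc4a4 and Mlc1. Hepacam did not pass the test, and Gjb6 lay near the bottom of the scale and was not tested. The test was limma, run on the 15055 genes that reached 3.32 (the log2 of 10) in 3 or more libraries. Calls were made below an adjusted p of 0.05, with the Benjamini-Hochberg adjustment spanning all of them. Of those genes 24.9% were called in either direction, 11.8% of them lower and 13.0% higher, against 5 lower and 0 higher of the 6 genes tested here. The median difference was -0.19 for the 6 genes and -0.00057 for all genes tested. Because the genes were chosen with earlier results of these data known, this contrast is a description and no independent support. Over all genes the split of calls moved with the scaling, from 52.4% higher as deposited to 34.8% with each library centred on its median, 65.6% with the linear sums made equal and 41.6% with those sums made equal without mitochondrial genes. Under these 3 scalings the same count of 5 lower and 0 higher was found among the 6.

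**Figure D1:**
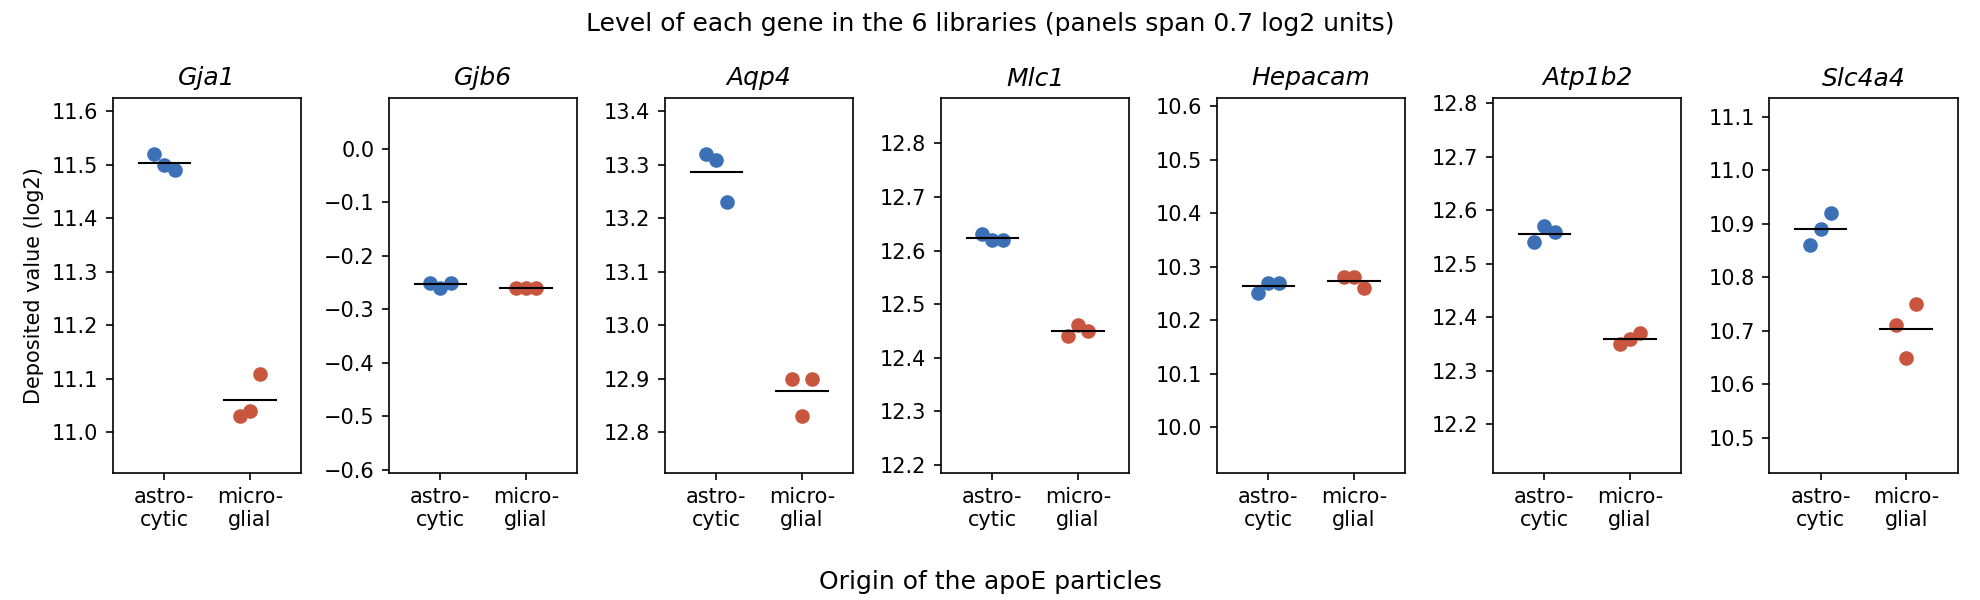
Deposited log2 value of each gene in the 6 libraries (points) with the group mean (line), astrocytic apoE in blue and microglial apoE in red. Every panel spans 0.7 log2 units. The 2 groups are apart for Gja1, Aqp4, Mlc1, Atp1b2 and Slc4a4, and overlap for Hepacam and Gjb6.

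Gja1 had the largest difference of the 7. It encodes connexin 43, the main gap junction protein of astrocytes (protein-coding, GRCm38 chromosome 10, 56377330 to 56402513, plus strand). Its value was 11.52, 11.50 and 11.49 with astrocytic apoE and 11.03, 11.04 and 11.11 with microglial apoE. All 3 microglial libraries lay below all 3 astrocytic ones, with a gap of 0.38 between the nearest, and the groups did not overlap, in either direction, for 38.9% of all genes tested. The difference of -0.44 ± 0.028 (SE) amounted to a level 1.36-fold lower (adjusted p = 4.9e-12). Only 0.25% of all genes tested had a lower difference.

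Gjb6, the connexin 30 gene (chromosome 14, 57123303 to 57133611, minus strand), was close to undetected. Its value was -0.25, -0.26 and -0.25 with astrocytic and -0.26 in each of the libraries with microglial apoE, on a scale whose lowest value was -1.97. The groups overlapped, and 23.2% of symbols with a value had a lower mean. At such a level the transformation removes most of any change, so a difference between groups was not detectable. The step from Gja1 to Gjb6 within a library was 11.74 to 11.76 with astrocytic and 11.29 to 11.37 with microglial apoE (exact permutation p = 0.10, two-sided, n = 3 per group, the smallest that 3 against 3 can give), and this difference of -0.43 comes almost wholly from Gja1. These steps are between genes of different length and do not give a ratio of transcript numbers.

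The upstream sequences of the 2 astrocyte connexin genes are shown because one was among the most lowered genes here and the other lay near the floor. They are the 250 bases before the RefSeq transcription start, 5′ to 3′ on the gene's strand, build GRCm38.p6, at chr10:56377050-56377299 (plus strand) for Gja1 and chr14:57133612-57133861 (minus strand) for Gjb6. Capitals mark matches to the searched motifs.
Gja1: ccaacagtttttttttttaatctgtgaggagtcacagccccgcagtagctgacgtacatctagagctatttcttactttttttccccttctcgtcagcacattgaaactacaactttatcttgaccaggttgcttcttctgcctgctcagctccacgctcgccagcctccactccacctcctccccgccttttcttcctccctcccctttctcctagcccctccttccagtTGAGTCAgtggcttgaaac
Gjb6: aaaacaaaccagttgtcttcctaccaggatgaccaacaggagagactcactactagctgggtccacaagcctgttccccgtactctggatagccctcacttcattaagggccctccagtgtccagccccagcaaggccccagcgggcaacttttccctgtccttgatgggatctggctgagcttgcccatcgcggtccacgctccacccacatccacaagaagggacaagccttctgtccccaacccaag
A total of 5 motifs were searched on both strands. The first, AP-1, was TGAGTCA with any base allowed in the middle position. The STAT motif was read as the letters TTCNNNGAA, where N is any base. For SOX factors the letters were ACAAAG, and for the TATA box they were TATAAA. The last was the full palindrome of nuclear factor I. With only 1 match over both windows, no overlap between matches was possible. The Gja1 window held 1 match, the AP-1 letters TGAGTCA from 19 to 13 bases before the start, and 6.75% of 32817 windows of that length hold an AP-1 match. No match lay in the Gjb6 window, whereas 7.01% of all windows hold the STAT letters, 16.5% the SOX letters, 0.0366% the nuclear factor I palindrome and 12.4% the TATA letters. The GC content of the Gja1 window lay below the median of 52.4% over all windows, and that of Gjb6 lay above it at 56.8%. These matches describe the letters only.

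No other connexin or pannexin passed the test. Of 21 other genes of these families, 2 stood at 0 and 13 were below the filter, which left 6 tested with a median difference of 0.03. Calls in either direction were made for 24.9% of all genes tested, and 6 genes are few to set against that share. Gjd2, the connexin of electrical synapses between neurons, differed by -0.05 ± 0.032 (SE, adjusted p = 0.31). Nor were calls made for Gjc1 (0.07 ± 0.035 SE, adjusted p = 0.17), which encodes connexin 45, or for the large-pore channel genes Panx1 (0.05 ± 0.028 SE, adjusted p = 0.17) and Panx2 (0.07 ± 0.033 SE, adjusted p = 0.12). Gjc1 and Panx2 passed as higher without astrocytic replicate 3 (adjusted p = 0.045 and 0.017), which made 2 of the 6 higher.

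Aqp4, the main water channel of the brain (chromosome 18, 15389496 to 15410982, minus strand), was the second most lowered. It stood at 13.32, 13.31 and 13.23 with astrocytic apoE and at 12.90, 12.83 and 12.90 with microglial apoE. The groups did not overlap and were 0.33 apart at the nearest. Its difference was -0.41 ± 0.029 (SE), a level 1.33-fold lower (adjusted p = 3.7e-11). Counting Aqp4 itself and Gja1, 39 of all genes tested (0.259%) were called lower by at least as much. Within a library Gja1 lay 1.74 to 1.81 below Aqp4 with astrocytic apoE and 1.79 to 1.86 below it with microglial apoE, ranges that overlap.

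Genes of the dystrophin complex, which anchors aquaporin-4, were called in both directions, each by less than Aqp4. The list of 23 other aquaporin and dystrophin complex genes had 17 tested, of which 4 were lower and 3 higher (median -0.00086). Of all genes tested 11.8% were lower and 13.0% higher. Dag1, which encodes dystroglycan, the link to the extracellular matrix, fell by 0.14 (SE 0.027, adjusted p = 0.00035). Dtna, which encodes alpha-dystrobrevin, fell by 0.11 (SE 0.028, adjusted p = 0.0037). Agrn, whose product agrin is a matrix ligand of dystroglycan, rose by 0.20 (SE 0.031, adjusted p = 1.6e-05). Named after its value was seen, Sntg2 (-0.06) was also lower. The other higher ones, named afterwards too, were the dystrophin gene Dmd itself (0.10, SE 0.029, adjusted p = 0.013) and Aqp9 (0.05). Without microglial replicate 1, 1 gene of the list was higher.

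Mlc1 and Hepacam parted. Mlc1 (chromosome 15, 88955884 to 88979007, minus strand) stood at 12.63, 12.62 and 12.62 with astrocytic and at 12.44, 12.46 and 12.45 with microglial apoE. The groups were 0.16 apart at the nearest, and the difference was -0.17 ± 0.025 (SE), a level 1.12-fold lower (adjusted p = 1.5e-05). Hepacam (chromosome 9, 37367351 to 37386575, plus strand), whose product brings MLC1 and the chloride channel ClC-2 to cell contacts, stood at 10.25, 10.27 and 10.27 with astrocytic and at 10.28, 10.28 and 10.26 with microglial apoE. Those groups overlapped. Its difference was 0.01 ± 0.028 (SE), with a 95% interval of -0.05 to 0.07 (adjusted p = 0.82), and its sign turned (-0.01) with each library centred on its median. The step from Mlc1 to Hepacam was 2.34 to 2.38 with astrocytic and 2.16 to 2.19 with microglial apoE. This change of -0.18 in the step has an exact permutation p of 0.10 (two-sided, n = 3 per group), the smallest that 3 against 3 can give, so it cannot pass 0.05 by that test.

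Of 12 partners of MLC1 and GlialCAM and volume-regulated channel genes, 10 were tested, 3 of them lower and 2 higher (median -0.02). The shares over all genes tested were 11.8% lower and 13.0% higher. The receptors Gpr37l1 and Gprc5b, which are found with the MLC1 complex, fell by 0.20 (SE 0.026, adjusted p = 1.3e-06) and 0.13 (SE 0.028, adjusted p = 0.00087). The remaining lower gene, named after its value was seen, was the caveolin gene Cav1 (-0.13). Lrrc8a, the obligatory subunit of the volume-regulated anion channel, rose by 0.13 (SE 0.031, adjusted p = 0.0021) and its partner subunit Lrrc8d by 0.12 (SE 0.029, adjusted p = 0.0044). Clcn2, which encodes ClC-2, did not pass and is named afterwards too (-0.03 ± 0.033 SE, adjusted p = 0.61).

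Atp1b2, the beta-2 subunit of the sodium pump and an adhesion molecule on glia (chromosome 11, 69599736 to 69605942, minus strand), stood at 12.54, 12.57 and 12.56 with astrocytic apoE. With microglial apoE it stood at 12.35, 12.36 and 12.37, so the groups did not overlap. The difference was -0.20 ± 0.026 (SE), a level 1.15-fold lower (adjusted p = 1.6e-06). Fxyd1, which encodes the pump regulator phospholemman, was at 7.74 ± 0.022 (SD, n = 3) with astrocytic and at 7.46 ± 0.049 with microglial apoE. Its groups did not overlap, and it fell by 0.28 (SE 0.031, adjusted p = 1.4e-07).

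Pump genes moved in both directions. Of 14 other subunit and FXYD regulator genes 10 were tested, of which 2 were lower, Fxyd1 among them, and 3 higher (median 0.01). Of all genes tested 11.8% were lower and 13.0% higher. The higher count was not stable: it ran from 1 to 4 over 14 alternatives of processing and differed from 3 in 12 of them. Atp1b3, the beta-3 subunit, rose by 0.18 (SE 0.029, adjusted p = 6.2e-05). Fxyd5 rose by 0.06 (SE 0.016, adjusted p = 0.0099), a call that went with median centring (adjusted p = 0.082), with the limma options off (0.066), and without astrocytic replicate 2 (0.052) or microglial replicate 3 (0.051). Under each of these 4 settings 1 pump gene was higher. Atp1b1, the main beta subunit of neurons, did not pass and is named after its value was seen (0.05 ± 0.025 SE, adjusted p = 0.14).

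Slc4a4, the NBCe1 gene (chromosome 5, 88886818 to 89239653, plus strand), stood at 10.86, 10.89 and 10.92 with astrocytic and at 10.71, 10.65 and 10.75 with microglial apoE. The groups did not overlap, but at 0.11 their gap was the narrowest among the 5 lowered genes. Its difference was -0.19 ± 0.030 (SE), a level 1.14-fold lower (adjusted p = 3.8e-05), and it ran from -0.21 to -0.16 as libraries were left out in turn. Kcnj10, the inward rectifier Kir4.1 that carries potassium into astrocytes, fell by 0.26 (SE 0.028, adjusted p = 7.5e-08), from 11.14, 11.18 and 11.17 to 10.90, 10.86 and 10.94. Among 19 other genes of bicarbonate, proton, chloride and potassium transport 16 were tested. Of these, 3 were lower and 2 higher (median 0.01), against 11.8% lower and 13.0% higher of all genes tested. The other lower ones were the bicarbonate transporters Slc4a8 (-0.13 ± 0.031 SE, adjusted p = 0.0025) and Slc4a7 (-0.10 ± 0.029 SE, adjusted p = 0.0081). Slc12a4, a potassium-chloride cotransporter, rose by 0.19 (SE 0.030, adjusted p = 2.7e-05). The second higher gene, named after its value was seen, was the neuronal potassium-chloride cotransporter Slc12a5 (0.08 ± 0.029 SE, adjusted p just under 0.05). This count was not stable: 1 gene was higher in 10 of 14 alternatives, those without astrocytic replicate 1 or 2 and without microglial replicate 1 or 3 among them.

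**Figure D2:**
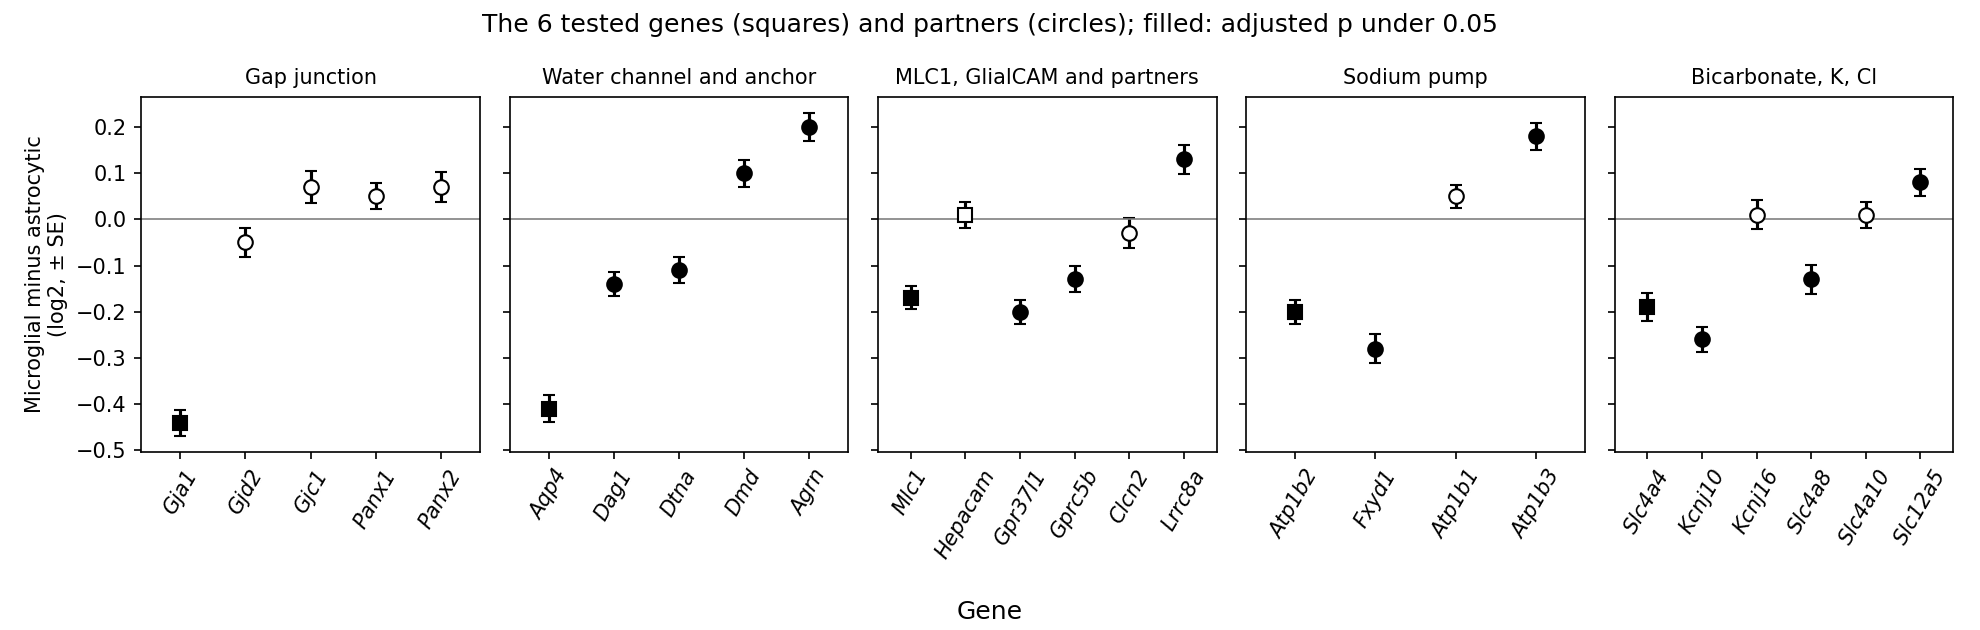
Difference in log2 value (microglial minus astrocytic apoE, ± SE) of the 6 tested genes (squares) and of genes that work with them (circles, a selection from the lists), filled at an adjusted p under 0.05. Gja1 (-0.44) and Aqp4 (-0.41) lie lowest. In the sodium pump panel Atp1b2 lies at -0.20 and Fxyd1 at -0.28, and Atp1b3 lies at 0.18.

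Other astrocyte transcripts were read beside the 5 lowered genes. Of 28 other astrocyte markers, all tested, 18 were lower and 3 higher with microglial apoE (median -0.10). Of all genes tested 11.8% were lower and 13.0% higher. Over 14 alternatives of processing 15 to 19 markers were lower and 2 to 4 higher. The markers had a summed linear level of 99920 to 100981 with astrocytic and 87656 to 88991 with microglial apoE. Those with the smallest p were Gfap, the intermediate filament (-1.08 ± 0.026 SE), the mitochondrial glutamate carrier Slc25a18 (-0.63 ± 0.030 SE), the glycolytic enzyme Aldoc (-0.56 ± 0.026 SE) and the lipid-binding Fabp7 (-0.40 ± 0.026 SE). Aldh1l1, a folate enzyme used as a general astrocyte marker, was lower by less (-0.15 ± 0.027 SE, adjusted p = 0.00012), as was S100b (-0.17 ± 0.023 SE, adjusted p = 3.1e-06). The glutamate transporters went apart, with Slc1a3 higher (0.09 ± 0.024 SE, adjusted p = 0.005) and Slc1a2 lower (-0.10 ± 0.028 SE, adjusted p = 0.014). Named after their values were seen, Cbs (0.20) and F3 (0.10) were the other higher markers. The Slc1a2 call went when astrocytic replicate 1 (adjusted p = 0.066) or microglial replicate 2 (adjusted p = 0.061) was left out. Gfap fell further than the channels: Aqp4 lay 0.22 to 0.33 above Gfap with astrocytic and 0.90 to 0.99 above it with microglial apoE.

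**Figure D3:**
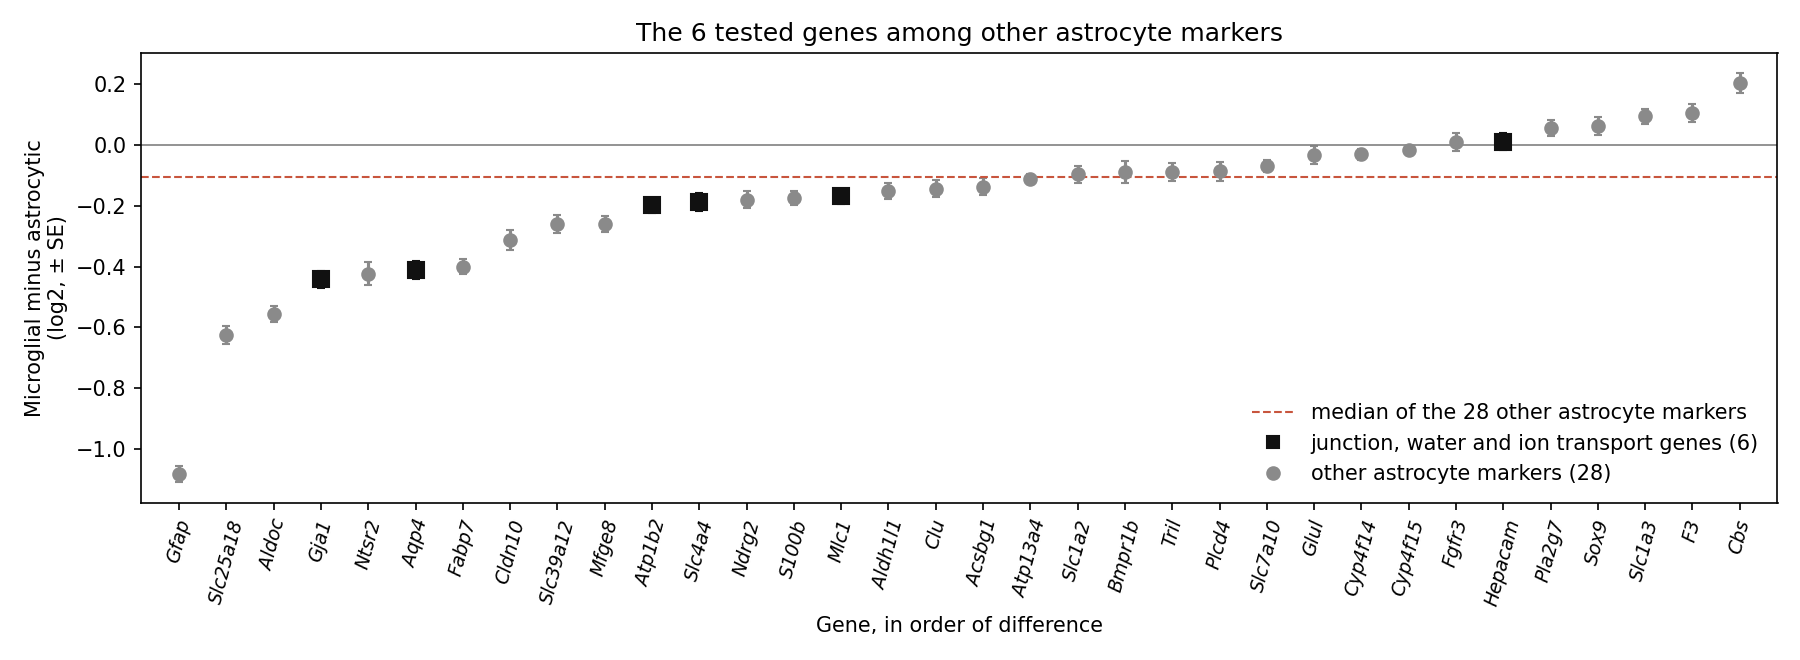
Difference in log2 value (microglial minus astrocytic apoE, ± SE) of the 6 tested genes (black squares) and 28 other astrocyte markers (grey circles), in order of difference. Gja1 and Aqp4 lie among the lowest, near -0.4, Atp1b2, Slc4a4 and Mlc1 lie between -0.20 and -0.17, and Hepacam lies at 0.01, above the dashed median of the markers (-0.10).

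An alternative added after the data were seen set the genes against these markers. Each library was shifted by the median deviation of the 28 markers, 0.042 to 0.077 with astrocytic and -0.068 to -0.051 with microglial apoE. This moved every difference up alike, the median of all genes by 0.116, and 97.6% of calls were then higher, so the values below place a gene against the marker median and are no evidence of a rise. Relative to the markers, Gja1 (-0.33 ± 0.030 SE, adjusted p = 3.6e-08) and Aqp4 (-0.30 ± 0.033 SE, adjusted p = 1e-06) lay below. Atp1b2 (-0.08, adjusted p = 0.006) and Slc4a4 (-0.07, adjusted p = 0.042) lay below by less. Mlc1 was near the marker median (-0.05 ± 0.025 SE, adjusted p = 0.06), and Hepacam lay above it (0.13 ± 0.028 SE, adjusted p = 0.00048). Of the partners, Fxyd1 (-0.16) and Kcnj10 (-0.15) lay below, and Dag1 (-0.03) and Dtna (0.0028) lay near it. These SEs do not carry the error of the marker median itself.

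Markers of other cells were read in the same libraries, where 11.8% of all genes tested were lower and 13.0% higher. All 12 markers of dividing cells were lower (median -0.55), and their summed linear level was 2875 to 2961 with astrocytic and 1894 to 1929 with microglial apoE. Of 10 neural progenitor markers 4 were lower and 4 higher, with sums of 34456 to 35163 and 34547 to 35022. In the oligodendrocyte lineage 3 of 9 tested markers were lower and 1 higher, with sums of 6509 to 6813 and 6615 to 6779. Ependymal and choroid plexus markers had 1 of 5 lower and 1 higher and summed to 844.4 to 867.7 and 810.2 to 837.8. Fibroblast and mural markers had 0 of 7 lower and 3 higher, with sums of 1755 to 1813 and 1931 to 1971. Microglial markers summed to 330.3 to 332.9 and 336.5 to 339.8 (2 of 10 higher). Of 8 endothelial markers 2 were tested, 0 lower and 0 higher, with sums of 121.0 to 124.0 and 119.3 to 122.1. With astrocytic apoE they ran from Kdr at 6.50 down to Cldn5 and Cdh5, near the floor at -1.48 and -1.96. The part of RNA from dividing cells and of these other cells in the differences of the 7 genes was not tested.

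Compared per length, the transcripts differed widely in abundance. Levels were taken as 2 to the power of the deposited value per kb of annotated exon, which depends on the exon set and ranks genes only roughly. With astrocytic apoE, Mlc1 was highest at 2250 ± 8.58 (SD, n = 3), above 98.1% of genes tested by its mean over the 6 libraries. Aqp4 followed at 1600 ± 55.9 and Atp1b2 at 1480 ± 17.8. Hepacam (368 ± 3.46), Gja1 (283 ± 2.48) and Slc4a4 (176 ± 3.47) formed a lower tier. With microglial apoE the order of Aqp4 and Atp1b2 was exchanged, at 1200 ± 32.6 and 1290 ± 6.26. Aqp4 ranged from 1539 to 1644 against 1458 to 1493 for Atp1b2 with astrocytic apoE, and from 1167 to 1223 against 1280 to 1293 with microglial apoE. This exchange holds only per length: undivided, Aqp4 stood above Atp1b2 in all 6 libraries, by 0.67 to 0.78 on the log2 scale with astrocytic and by 0.47 to 0.54 with microglial apoE. No 2 neighbours in either order of levels per kb overlapped between libraries.

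**Figure D4:**
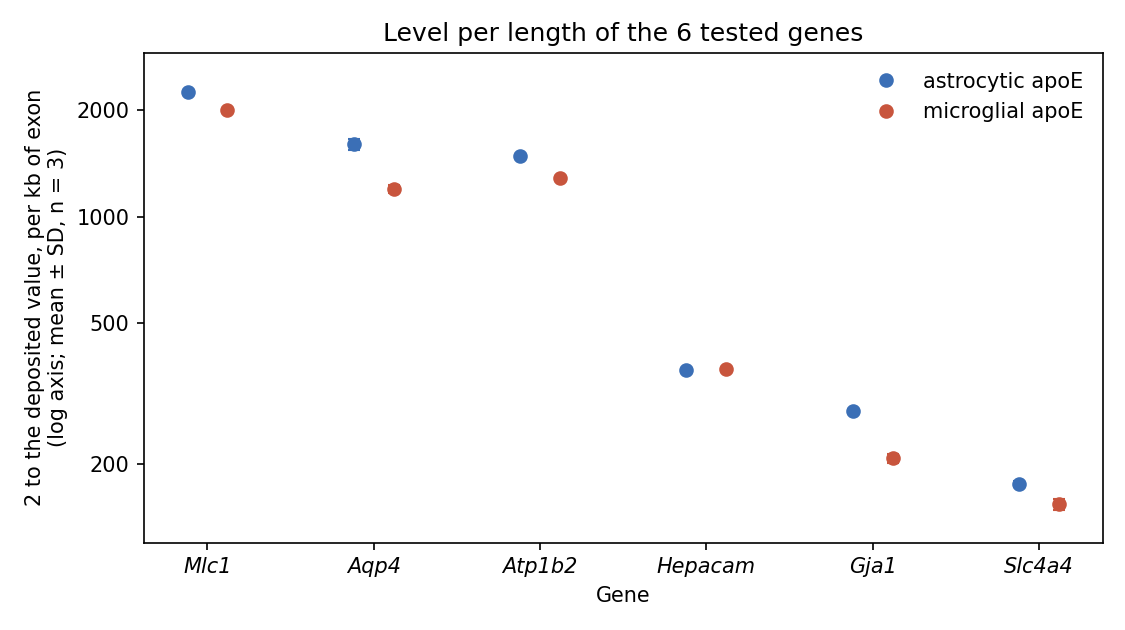
Level per kb of exon of the 6 tested genes (2 to the deposited value, log axis, mean ± SD, n = 3 libraries per group), with astrocytic apoE in blue and microglial apoE in red. Mlc1 is highest in both groups, Aqp4 lies above Atp1b2 with astrocytic apoE (1600 against 1480) and below it with microglial apoE (1200 against 1290).

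Likeness of the 6 tested genes was measured as the root mean square difference over the 6 libraries after each gene was centred on its own mean. Mlc1, Atp1b2 and Slc4a4 lay close together: Mlc1 and Atp1b2 were 0.020 apart, Atp1b2 and Slc4a4 0.032, and Mlc1 and Slc4a4 0.039. Gja1 and Aqp4 lay 0.038 apart. Hepacam was 0.091 from Mlc1, its nearest of the 6, and 0.229 from Gja1, the largest distance among them. Over all tested genes, the nearest to Gja1 were Tpx2, a spindle assembly factor, at 0.015 and the endothelin receptor gene Ednrb at 0.024. Nearest to Aqp4 were Ckap2l at 0.021 and Rrm1, a ribonucleotide reductase subunit, at 0.030. Mlc1 was matched most closely by Oat (0.009) and Igsf10 (0.010), Atp1b2 by Cnp (0.009) and Pdia4 (0.010), and Slc4a4 by the cytokine receptor subunit Il6st (0.013) and the neurotrophin receptor Ntrk2 (0.019). Those of Hepacam were 1600002K03Rik and Fbxo17 (0.004 each), weakly expressed genes with values near 5 that differed as little between the groups (0.01 and 0.0047). Each of these rankings rests on the same 6 libraries. With 2 groups, the larger distances among the 6 genes mostly restate the gaps between the differences given above. The smaller ones also hold the spread within groups. None is separate evidence of a shared profile.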

How the data were processed

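RNA of 6 samples was measured by sequencing on a DNBSEQ platform, per the labels' protocols. Per the submitters' processing notes, the build was GRCm38 and the tools included DESeq2, featureCounts, HISAT2 and FastQC, with no role stated for any. Their versions, the annotation and the strand setting are not given in the sources used. The deposited values are on a log2 scale. A regularized logarithm is inferred from them: the same 21031 symbols stand at 0 in every library, and weak genes lie close to their own mean. Depth is therefore unknown and no count test was possible.

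The values were tested as deposited with limma 3.58.1 in R 4.3.3 (trend and robust options), over genes with a value of at least the log2 of 10 in at least 3 libraries. Errors of levels are SDs and errors of differences are moderated SEs. Single steps between 2 genes were compared by exact permutation with scipy in Python 3.11.15. Coordinates and exon lengths are from GENCODE M21 (GRCm38), matched by symbol. Upstream sequences are from RefSeq (GRCm38.p6), which matched 5 of the 7 genes. The Gja1 and Gjb6 windows are printed.

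The genes and lists were chosen with earlier results of these data known. Genes named are the 7 themselves, the up to 4 genes of smallest p in each pathway list, the 4 of smallest p among astrocyte markers with Slc1a2, Slc1a3, Aldh1l1 and S100b, the 2 nearest profiles of each of the 7 that was tested, and Kcnj10 and Gjd2. Some genes this rule names are not reported here, though list counts include them. Others are marked as named afterwards or stand as markers of other cells. Alternatives were 4 scalings, 2 filters, the limma options, a replicate block and each library left out, and 1 scaling was added later.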

Additional observations from a re-analysis of the deposited data

How the results depend on the processing

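Under the 14 alternatives of scaling, filter, limma options, block and libraries left out, the differences of Gja1 (-0.47 to -0.43), Aqp4 (-0.44 to -0.39), Atp1b2 (-0.22 to -0.19), Slc4a4 (-0.21 to -0.16) and Mlc1 (-0.19 to -0.16) kept direction and call. Hepacam ran from -0.01, its value with median centring, to 0.02 and never passed. Left out in turn, single libraries gave 2556 to 4541 calls against 3742 and moved the change in the step from Mlc1 to Hepacam between -0.19 and -0.17. No label pairs the samples by replicate number, and the values showed no such pairing. Deviations of same-numbered libraries correlated at 0.04, -0.12 and -0.19. Only microglial replicate 1 correlated best with the library of its own number, and every other library correlated best with a different number. With 3 libraries per group this check cannot settle whether any of them shared a culture. The replicate block gave 3387 calls, with 5 of the 7 genes lower. Gjb6, tested only with no filter, had a difference of -0.007 (adjusted p = 0.092). Genes called lower numbered 1780, 2765 with median centring and 1117 with centring on the median value of the astrocyte markers. With the shift by the change of those markers, added after the data were seen, 12103 genes were called, 295 lower and 11808 higher. Among the 7 genes 4 were lower and 1 higher there, with Mlc1 at -0.05 and Hepacam at 0.13, since the shift raises every difference by one amount. Signs also turned for small differences: 1600002K03Rik (-0.01), Fbxo17 (-0.01) with median centring, and 1600002K03Rik (-0.00017), Fbxo17 (-0.01) with sums made equal without mitochondrial genes, and Dtna (0.0028), Gjd2 (0.07), Slc1a2 (0.02), Slc4a7 (0.01) with the shift, and 1600002K03Rik (-0.0012), Fbxo17 (-0.0045) without astrocytic replicate 1. Values per library rest on an unknown depth.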
